A study of Rattus norvegicus with 26 samples.

Results

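The aortas of rats given valsartan were compared with those of rats given saline, gene by gene. Sample titles set the groups: 6 valsartan arrays and 8 saline arrays, which are 14 of the 26 arrays of the series. All were thoracic aortas of male SHR, the spontaneously hypertensive rat, whose high blood pressure is inherited, so the saline rats were hypertensive too and no rat of a normotensive strain was among these groups. Valsartan was given by mouth at 21.6 mg per kg each day in the afternoon, and saline at 7.5 mL per kg, for 4 weeks, and the aortas were taken at day 28. The other 12 arrays were from rats given Songling Xuemaikang capsule (SXC), a Chinese herbal medicine, at 236.25 mg per kg (6 arrays, low dose) or 708.75 mg per kg (6 arrays, high dose), in the morning and around noon. The series text counts 8 valsartan rats, and 6 valsartan arrays were analysed here. RNA was extracted from each aorta separately. No source used here gives the hour at which tissue was taken.

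Valsartan blocks the angiotensin II type 1 receptor. Angiotensinogen is cut to angiotensin I, converting enzyme makes angiotensin II from it, and angiotensin II acts through the type 1 receptor, which rodents carry as a pair of genes (Agtr1a and Agtr1b), to contract vascular smooth muscle and to promote matrix deposition. The aorta is mostly smooth muscle with an endothelial lining and an outer adventitia of fibroblasts, nerves and immune cells, and the thoracic aorta lies in fat that in rodents resembles brown fat. It also holds a circadian clock, in which Bmal1 with Clock or Npas2 drives the Per and Cry genes, their repressors, and the output factors Dbp and Tef, while Nr1d1 represses Bmal1.

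The arrays of the groups differed in brightness and were not read together. Saline arrays had 67.3 to 76.2% of their probes well above background and were scanned on 1 day at a detector gain of 354 V. Valsartan arrays had 32.4 to 56.5%, and were scanned on 1 day, 84 days earlier, at 325 V. No scan day or slide held both groups, so the treatment and the scan day cannot be told apart. The lowest signal well above background lay between -6.68 and -5.90 on saline arrays and between -4.36 and -1.60 on valsartan arrays, on the scale used throughout (log2 intensity minus the array's 75th percentile, on which levels of different probes are not comparable). The high-dose SXC group was the only one read at both gains, with 4 of its 6 arrays at the lower one and 2 of them scanned on the valsartan day. Within the saline group, array 4 lay within an SD of 0.15 (log2) of the mean of arrays 1 and 2, and array 8 within 0.11 of the mean of arrays 2 and 3. Arrays 1 and 5, 2 and 6, and 3 and 7, each pair split between slides, deviated from their slide's mean together (r = 0.86, 0.82 and 0.92 across probes), and arrays 4 and 8 did not (-0.12). The labels list 8 saline samples and do not say what links them, and the p-values here treat them as 8 separate aortas; whether any share a source was not tested. With saline taken as the means of these 3 pairs, arrays 4 and 8 left out, 9920 probes were called and 424 of the 535 list members called below kept call and direction. Outside the saline group no array lay nearer than 0.24 to the mean of any pair of its group. Saline arrays 3, 7 and 8 also carried high levels of fat and mitochondrial genes, given below with each result that rests on them.

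Smooth muscle markers were present in both groups, and summed levels of the 17 tested contractile genes ran from 7.95 to 9.20 with saline and from 8.55 to 9.11 with valsartan. Endothelial markers were weaker with valsartan: their summed level ran from 3.69 to 4.15, against 4.05 to 5.53 with saline, and Cldn5, Esam, Nos3, Emcn and Tek were well above background on no valsartan array. Saline arrays 3, 7 and 8 had the highest sums (5.53, 5.34 and 5.16), and the other 5 saline arrays ran from 4.05 to 4.81. A smaller number of cells of a type and less RNA per cell cannot be told apart in whole aorta.

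In a limma fit over all 26 arrays, 13876 of 23744 tested probes (58.4%) passed an adjusted p of 0.05 between valsartan and saline. Taking the brightest probe of each gene, 7247 of 12238 genes (59.2%) passed, 4075 (33.3%) higher with valsartan and 3172 (25.9%) lower, and the median difference over all genes was 0.15 on the log2 scale. These shares are the background for every list below: a list with about 33% of its genes higher and 26% lower does what the average gene did. Dim probes bear on these counts. Of the 5020 probes that were well above background on no valsartan array, 1173 were called higher and 961 lower, and of the 8700 seen on all 6 valsartan arrays, 3387 were called higher and 2435 lower. Among the 4926 genes well above background on all 14 arrays, 1991 (40.4%) were higher and 1262 (25.6%) lower. When detector gain was added as a term, estimated from the high-dose SXC arrays, 1093 genes (8.93%) were higher and 880 (7.19%) lower. Of the 860 list members tested, 535 passed, and 177 of these kept their call and direction with the gain term, while 358 lost it. With every array raised to the floor of the dimmest, -1.04, 335 kept call and direction.

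**Figure D1:**
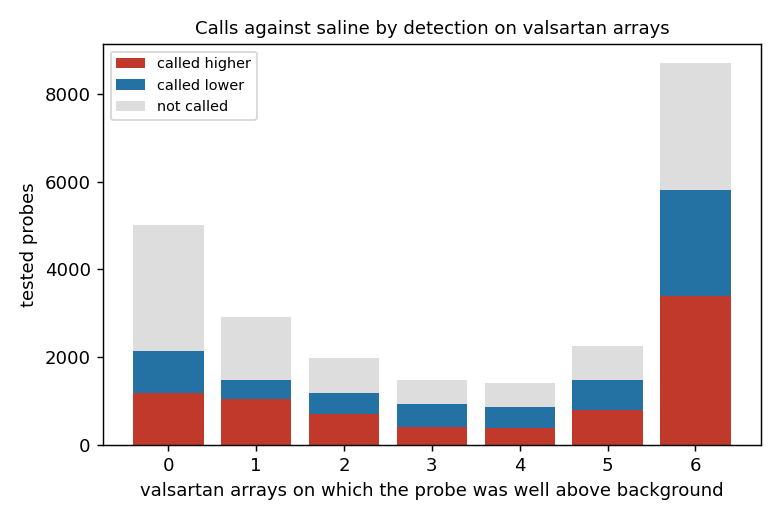
Tested probes (vertical axis, number of probes) by the number of the 6 valsartan arrays on which they were well above background, split into probes called higher than saline, called lower and not called. The right-hand bar, probes seen on all 6 valsartan arrays, holds 8700 probes, and the left-hand bar holds 5020 probes that were well above background on none.

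Of the renin-angiotensin genes, the blocked receptor's own pair moved in opposite directions. Agtr1a, which encodes the main rodent type 1 receptor, lay between -2.71 and -2.11 on the valsartan arrays (median -2.35) and between -0.41 and 0.41 on the saline arrays (median 0). Agtr1b, the second receptor gene, lay between 0.67 and 1.40 with valsartan (median 0.97) and between -2.64 and -1.02 with saline (median -1.83). The groups did not overlap for either gene, as was the case for 31.9% of all genes. Agtr1a fell by 2.40 ± 0.19 (SE; adjusted p = 1.64e-10) and Agtr1b rose by 2.84 ± 0.24 (adjusted p = 6.74e-10). Both calls held with detector gain as a term, where Agtr1a fell by 1.92 (adjusted p = 0.000512) and Agtr1b rose by 2.05 (adjusted p = 0.00209).

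The genes upstream of the receptor were lower or unchanged by the test. Agt, the precursor angiotensinogen, ran from -4.13 to -2.16 with valsartan and from -1.92 to 2.18 with saline, and fell by 3.15 ± 0.55 (adjusted p = 3.1e-05). The saline arrays spread widely here, without saline arrays 3, 7 and 8 the fall was 2.18, and with gain as a term the call was lost (-2.87, adjusted p = 0.0735). Cma1 encodes a mast cell chymase, and whether it makes angiotensin II in these aortas was not tested. Its probe was well above background on all 8 saline arrays and on no valsartan array, and was at least 5.98-fold lower. Ace, the converting enzyme, was at -0.68 ± 0.22 (SD, n = 6) with valsartan and -0.75 ± 0.52 (SD, n = 8) with saline (difference 0.07, adjusted p = 0.793), although a dimmer probe of Ace, well above background on 1 valsartan array, was lower by the test (-1.57, adjusted p = 0.00222).

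Among the peptidases that break angiotensins down, Thop1 rose by 1.25 ± 0.20 (adjusted p = 7.42e-06), from a saline range of -1.30 to 0.07 to a valsartan range of 0.44 to 0.99. Enpep, which trims angiotensin II to angiotensin III, ran from 0.25 to 0.98 against 1.07 to 1.66 and fell by 0.73 ± 0.17, and Mme (neprilysin) fell by 2.96 ± 0.53. Agtrap, a protein that promotes uptake of the type 1 receptor into the cell, rose by 0.57 ± 0.16. Gain as a term ended the calls of Thop1 (0.92, adjusted p = 0.0981), Enpep (-0.29, adjusted p = 0.619) and Agtrap (0.26, adjusted p = 0.641) and kept that of Mme. In all, 3 of the 14 tested genes of the list were higher and 7 lower, with a median of -0.53. Agtr2 and Mas1 were on the array and did not pass the filter for testing. None of the 14 differed from high-dose SXC by the test, a comparison in which 0.36% of all genes were higher with valsartan and 1.07% lower.

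**Figure D2:**
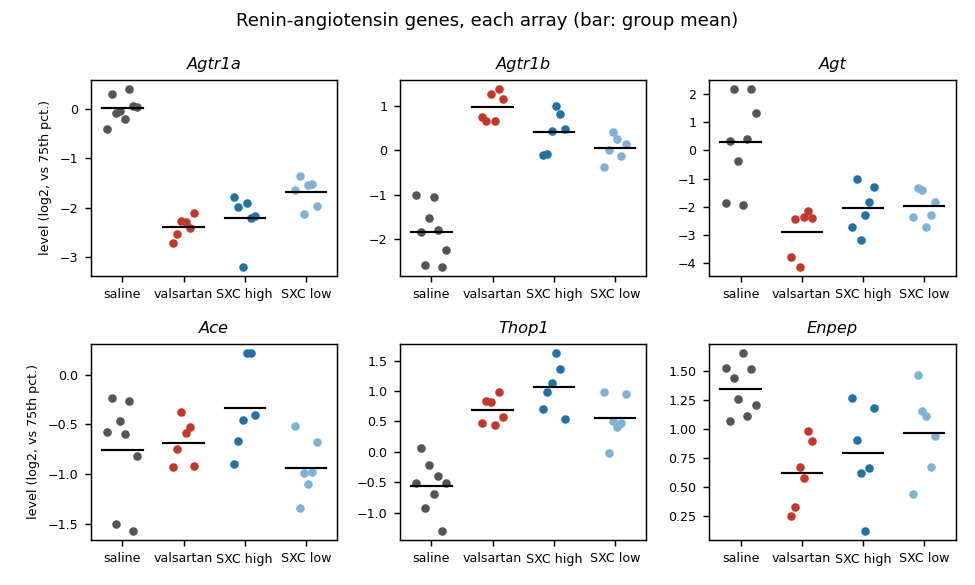
Level of 6 renin-angiotensin genes on each array (vertical axes, log2 intensity minus the array's 75th percentile), by treatment group; points are arrays and bars are group means. Valsartan and saline arrays did not overlap for Agtr1a, Agtr1b, Agt, Enpep and Thop1 and overlapped for Ace; every SXC array lies below the saline arrays for Agtr1a and above them for Agtr1b.

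The clock genes are shown with their promoters because they form a known loop that acts through short promoter motifs. Bmal1 with its partners binds the E-box (CACGTG, or the variant CACGTT), Dbp and Tef bind the D-box (TTATGTAA or TTATGCAA), and Nr1d1 and the ROR factors bind an element with the core TAGGTCA. RefSeq promoters on GRCr8, taken as the 250 bases before the annotated start, were found for 19 of the 25 tested clock genes, and each motif was searched on both strands; CACGTG reads the same on either strand, and no match to one motif can also be a match to another. The E-box CACGTG was found in 4 of the 19, against 5.79% of 27457 promoters, and CACGTT in 3, against 4.14%. TTATGTAA was found in 1 (0.816% of all promoters), TTATGCAA in 0 (0.736%) and TAGGTCA in 1 (2.26%). Of the 19 promoters, 11 held none of these motifs. Of the 8 clock genes that differed between valsartan and high-dose SXC, 4 had a motif in the window. The sequences of these 4 are given 5′ to 3′ in the gene's direction with these motifs in capitals. They are Ciart (chr2:186112247-186112496, minus strand), Per2 (chr9:99496994-99497243, minus strand), Tef (chr7:115206577-115206826, plus strand) and Bmal1 (chr1:176766078-176766327, plus strand).
Ciart: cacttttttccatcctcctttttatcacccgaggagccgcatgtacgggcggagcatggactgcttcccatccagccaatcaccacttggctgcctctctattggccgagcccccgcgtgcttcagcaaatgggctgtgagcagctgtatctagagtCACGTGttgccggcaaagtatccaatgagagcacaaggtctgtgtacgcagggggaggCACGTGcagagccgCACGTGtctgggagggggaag
Per2: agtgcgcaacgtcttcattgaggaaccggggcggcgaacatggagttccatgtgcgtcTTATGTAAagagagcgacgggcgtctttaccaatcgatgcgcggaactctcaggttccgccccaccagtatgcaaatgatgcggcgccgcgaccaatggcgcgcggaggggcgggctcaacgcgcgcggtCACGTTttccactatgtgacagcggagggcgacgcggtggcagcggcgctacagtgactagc
Tef: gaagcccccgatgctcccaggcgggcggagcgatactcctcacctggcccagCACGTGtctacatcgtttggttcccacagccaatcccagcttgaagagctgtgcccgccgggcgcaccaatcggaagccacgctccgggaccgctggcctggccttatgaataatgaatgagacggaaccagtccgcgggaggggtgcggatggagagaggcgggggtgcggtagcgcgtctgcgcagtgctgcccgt
Bmal1: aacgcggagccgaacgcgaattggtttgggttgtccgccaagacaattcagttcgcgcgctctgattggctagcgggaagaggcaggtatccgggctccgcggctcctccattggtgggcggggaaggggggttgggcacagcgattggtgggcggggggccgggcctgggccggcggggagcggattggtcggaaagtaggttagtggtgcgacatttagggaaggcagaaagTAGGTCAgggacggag
Ciart holds 3 E-boxes, beginning 93, 35 and 21 bases before the start. Per2 holds a D-box at 192 bases and the E-box variant at 62, Tef an E-box at 198, and Bmal1 the TAGGTCA core at 16. A match describes letters in these windows and no binding was measured.

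Several clock repressors (Ciart, Per1, Per2, Per3 and Nr1d1) and output genes (Dbp, Tef, Wee1 and Usp2) were higher with valsartan, the activators Bmal1 and Npas2 and the repressor Cry1 were lower, and output genes moved in both directions. Dbp, an output factor under direct E-box control, lay between 4.50 and 5.08 on the valsartan arrays (median 4.78) and between 1.1 and 2.93 on the saline arrays (median 2.28). It rose by 2.70 ± 0.27 (adjusted p = 1.04e-08), and its other probes gave 2.26 and 2.36. Ciart, a repressor of the Bmal1 complex, ran from 1.39 to 1.95 (median 1.64) against -2.37 to -0.82 (median -2.0). It rose by 3.43 ± 0.29 (adjusted p = 6.89e-10). Per2 ran from 1.78 to 2.24 (median 1.95) against 1.01 to 1.52 (median 1.18), and rose by 0.77 ± 0.11 (adjusted p = 1.78e-06). None of these 3 genes overlapped between the groups. Per3 rose by 1.63 ± 0.28, Nr1d1 by 1.42 ± 0.30 and Per1 by 0.88 ± 0.29, the last at an adjusted p of 0.0115. Of the output genes, Tef rose by 0.83 ± 0.19, Wee1, a cell cycle kinase, by 0.94 ± 0.26 and Usp2, a deubiquitinase, by 0.85 ± 0.17.

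On the other arm, Bmal1 ran from -5.65 to -3.04 with valsartan (median -4.92) and from -1.14 to 0.24 with saline (median -0.67). It was well above background on all 8 saline arrays and on no valsartan array, and was at least 5.89-fold lower on the main scaling (adjusted p = 6.3e-09). After normexp background correction Bmal1 differed by -1.98, a smaller fall than that bound. Npas2 ran from -2.73 to -0.84 (median -2.46) against -1.60 to 0.25 (median -0.38), with 1 valsartan array inside the saline range, and fell by 1.75 ± 0.30 (adjusted p = 2.2e-05); a dimmer probe of Npas2 did not pass (0.36, adjusted p = 0.247). Nampt, an enzyme of NAD synthesis under clock control, fell by 2.31 ± 0.21, from a saline range of 0.54 to 1.60 to a valsartan range of -1.52 to -0.94. Nfil3, which opposes Dbp at the D-box, fell by 2.12 ± 0.35. Cry1 fell by 0.72 ± 0.22 (adjusted p = 0.00653), which was not called without saline arrays 3, 7 and 8 (-0.54, adjusted p = 0.0623). Clock itself was at -3.32 with valsartan and -3.26 with saline (adjusted p = 0.8). The kinase gene Csnk1e had probes at 5.19, 4.88 and 0.67, so its size depends on the probe. Of the 15 tested core genes 7 were higher and 4 lower, and of 10 output genes 4 and 4. The core count with detector gain as a term was 4 and 1, with Csnk1d, Csnk1e, Ciart (3.25, adjusted p = 0.000411) and Per2 (0.76, adjusted p = 0.0154) higher and Bmal1 lower (adjusted p = 0.00604). The output count was then 1 and 2, with Dbp higher (1.99, adjusted p = 0.00888). The same term ended the calls of Per3 (adjusted p = 0.136), Nr1d1 (0.548), Per1 (0.841), Tef (0.246), Wee1 (0.428), Usp2 (0.281), Npas2 (0.107), Nfil3 (0.0625) and Cry1 (0.401), each with its direction kept. At the common floor Bmal1 was not called (-0.49, adjusted p = 0.0657).

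The clock genes also differed between valsartan and high-dose SXC, where 44 of 12238 genes (0.36%) were higher with valsartan and 131 (1.07%) lower. The differences use no saline array, but the spread behind the p-values was estimated over all groups of the fit, saline included. Of the 15 core genes 3 were higher and 3 lower. Per2 was at 0.38 to 0.78 on the high-dose arrays, below all valsartan arrays, and was 1.40 higher with valsartan (adjusted p = 1.02e-07). Ciart was at -1.55 to 0.23 with high-dose SXC, again below all valsartan arrays, and was 2.56 higher (adjusted p = 8.63e-05). Cry1 was at -3.89 to -3.14 with high-dose SXC and was 1.99 higher with valsartan (adjusted p = 6.21e-05), while it was lower than with saline. Bmal1, well above background on 5 high-dose arrays and no valsartan array, was at least 2.4-fold lower with valsartan (adjusted p = 0.00327). Npas2 differed by -1.98 (adjusted p = 0.00348), and Clock, well above background on 2 valsartan arrays, by -1.01 (adjusted p = 0.0099). Among output genes, Tef was 1.17 higher (adjusted p = 0.007) and Wee1 1.46 higher (adjusted p = 0.0117). Dbp was 1.12 higher and missed the threshold (adjusted p = 0.0524).

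Restricting high-dose SXC to its 2 arrays scanned on the valsartan day kept the direction of each of these 8 called genes, and 7 passed. Cry1, Ciart, Bmal1 and Clock were each well above background on only 1 of these 2 arrays. One of the 2, high-dose array 3, had 28.7% of its probes well above background. Per2 was then 1.48 higher (adjusted p = 6.36e-05), Ciart 3.08 higher (adjusted p = 0.00027) and Cry1 1.87 higher (adjusted p = 0.00495), and Bmal1 passed too (adjusted p = 0.00226). Wee1 did not pass (0.97, adjusted p = 0.235). The background of that comparison was 528 of 23744 probes (2.22%), 125 higher (0.526%) and 403 lower (1.7%). Per2 was called in 30 of 30 settings, with differences between 1.27 and 1.48, and Ciart in 29 of 29, between 2.23 and 3.08. In a fit of only these 2 groups, Per2 (adjusted p = 0.000598) and Ciart (adjusted p = 0.00171) passed and the other 6 did not, and at the common floor of -1.04 Cry1, Bmal1, Npas2 and Clock lost their call. With slide as a random block Per2, Cry1 and Ciart passed, and Bmal1 (adjusted p = 0.0538), Npas2 (0.0784), Clock (0.11), Tef (0.108) and Wee1 (0.18) did not. After normexp background correction Bmal1 (adjusted p = 0.125), Clock (0.591) and Wee1 (0.0603) did not pass. The treatments were given at different hours of the day, and the part of dosing time or collection time in these differences was not tested.

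**Figure D3:**
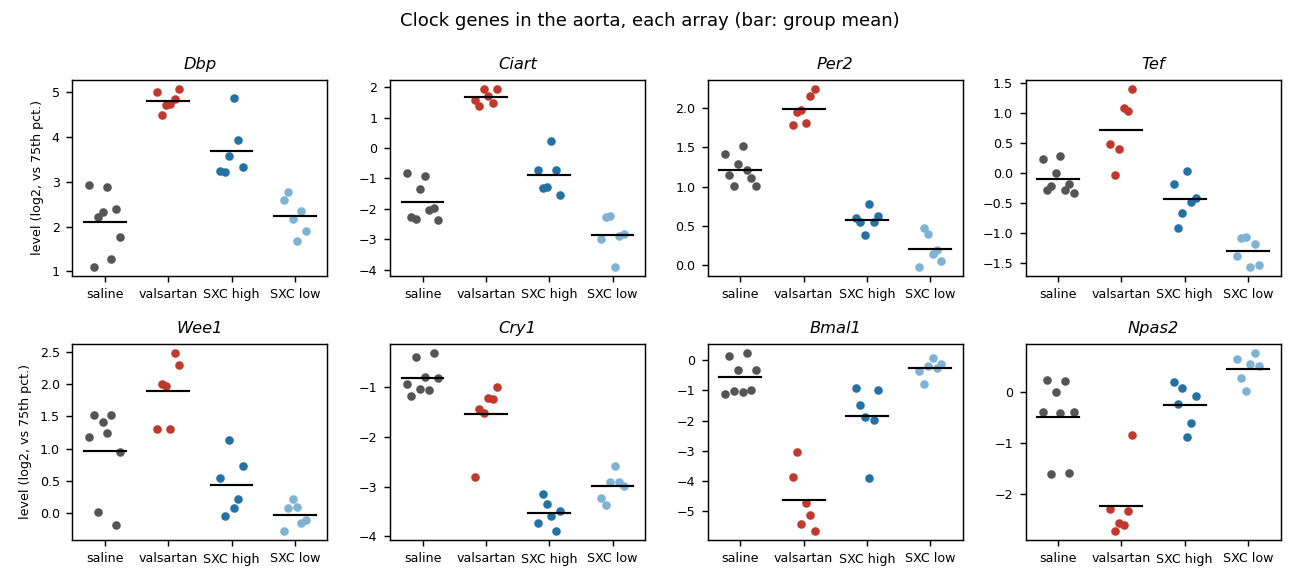
Level of 8 clock genes on each array (vertical axes, log2 intensity minus the array's 75th percentile), by treatment group; points are arrays and bars are group means. All valsartan arrays lie above all saline arrays for Dbp, Ciart and Per2 and below them for Bmal1; Per2 and Ciart on valsartan arrays lie above every SXC array too.

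Signalling genes of vascular tone changed at several levels. In the nitric oxide and cGMP list 10 of 15 tested genes were higher and 4 lower. The enzyme that makes endothelial nitric oxide, Nos3, was well above background on no valsartan array and was at least 1.52-fold lower. Cav1, which binds and restrains that enzyme, ran from 5.30 to 5.78 (median 5.65) against 6.20 to 6.43 (median 6.33) with no overlap, and fell by 0.73 ± 0.09 (adjusted p = 3.22e-07). Pde1a, a phosphodiesterase that degrades cGMP, ran from -1.98 to -1.5 against -4.61 to -3.16 and rose by 2.01 ± 0.23 (adjusted p = 8.81e-08). Arg1, an arginase that competes for the same substrate, rose by 1.57 ± 0.27. Ddah1, which removes an inhibitor of nitric oxide synthesis, rose by 1.21 ± 0.26 on its brightest probe and was lower on a dimmer one (-1.35, adjusted p = 0.0026). The list's count with detector gain as a term was 2 and 2, with Pde1a among the higher (1.72, adjusted p = 0.0105), and Cav1 (-0.43, adjusted p = 0.0759) and Ddah1 (1.18, adjusted p = 0.124) were not called. Nos3 was not called after normexp background correction (-0.12, adjusted p = 0.607).

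Endothelin-1 and its type B receptor were lower with valsartan by the test, at levels near background. Edn1 was at least 1.59-fold lower and Ednrb at least 1.48-fold lower, both well above background on all 8 saline arrays and no valsartan array, and Ece1, which activates endothelin-1, fell by 1.64 ± 0.28. After normexp correction none of the 3 was called (Edn1 -0.31, Ednrb -0.48 and Ece1 -0.38, adjusted p = 0.126, 0.0956 and 0.13), nor at the common floor, and the gain term ended the call of Edn1 (-1.07, adjusted p = 0.343). The type A receptor of smooth muscle, Ednra, was at -3.08 ± 0.44 (SD, n = 6) with valsartan and -2.80 ± 0.27 (SD, n = 8) with saline (adjusted p = 0.314). Of the 3 tested alpha-1 adrenergic receptors, which contract the aorta, Adra1d and Adra1a were higher and Adra1b was not called (0.11, adjusted p = 0.648). Adra1d ran from 1.05 to 1.37 (median 1.15) against -0.31 to 0.62 (median 0.11) and rose by 1.05 ± 0.15 (adjusted p = 2.58e-06), and by 1.41 with detector gain as a term (adjusted p = 0.00145). Adra1a ran from 1.66 to 2.28 against -2.15 to -1.03, and rose by 3.65 ± 0.35. Avpr1a, the vasopressin receptor of smooth muscle, was at least 1.17-fold lower and was not called after normexp correction (-0.13, adjusted p = 0.573). Of the 12 receptor genes tested 6 were higher and 3 lower, with a median of 1.01.

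Of 20 tested calcium handling genes 9 were higher and 2 lower (9 and 4 without saline arrays 3, 7 and 8). Itpr1, the calcium release channel of the sarcoplasmic reticulum, ran from 5.16 to 5.74 against 4.35 to 4.99 and rose by 0.79 ± 0.12 on its brightest probe, while another probe, well above background on all 14 arrays, was lower (-1.20, adjusted p = 2.25e-10). Trpc1, a cation channel, rose by 1.09 ± 0.14, with a second probe at 0.05, and the calcium pump Atp2b1 rose by 0.88 ± 0.16, with a second probe at -0.39. The brightest probe of these 3 genes therefore does not stand for all their transcripts. Cacna1g, a T-type channel with 1 probe, ran from -0.08 to 1.99 against -4.86 to -4.29 and rose by 5.65 ± 0.59; the L-type channel Cacna1c of arterial muscle was at -1.32 and -1.31 (adjusted p = 0.987). Among 17 potassium channel genes 6 were higher and 1 lower. Kcnj8, the pore of the vascular ATP-sensitive channel, ran from 2.32 to 3.30 (median 2.89) against 1.83 to 2.04 (median 1.91), with no overlap. It rose by 0.90 ± 0.14 (adjusted p = 9.42e-06), and by 1.1 with detector gain as a term (adjusted p = 0.00828). Kcnq1 rose by 2.04 ± 0.23, with a second probe at 0.91. The median of the potassium channel list, 0.46, was -0.05 after quantile normalisation.

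The contractile genes showed no common direction when all saline arrays were used, with 4 of 17 higher and 4 lower and a median of -0.25. Tpm2, beta-tropomyosin, ran from 2.74 to 4.30 (median 3.66) against 4.64 to 5.76 (median 5.35) and fell by 1.68 ± 0.27 (adjusted p = 1.03e-05). Lmod1, an actin nucleator of smooth muscle, fell by 1.12 ± 0.21 on its brightest probe, with another at 0.41 (adjusted p = 0.162), Des, desmin, fell by 1.17 ± 0.24 and Tagln by 0.60 ± 0.18. Smtn, smoothelin, rose by 1.32 ± 0.24, with a second probe at 0.28. Acta2, smooth muscle actin, was at 4.95 ± 0.19 (SD, n = 6) with valsartan and 5.78 ± 1.26 (SD, n = 8) with saline (adjusted p = 0.0619). Within the saline group the summed contractile level was lowest on the arrays rich in fat genes (8.27, 7.95 and 8.75 on arrays 3, 7 and 8, against 8.87 to 9.20 on the other 5). Without those 3 arrays 1 contractile gene was higher and 10 lower, with a median of -0.64, against 30.5% and 25% of all genes. Then Acta2 fell by 1.27 ± 0.26 (adjusted p = 0.000244), Cnn1 by 1.00 ± 0.16 (adjusted p = 1.33e-05), Tagln by 0.96 ± 0.11 (adjusted p = 1.9e-07) and Myh11 by 0.51 ± 0.11 (adjusted p = 0.000666). When gain was a term and all saline arrays were used, 0 contractile genes were called in either direction. In the list of myosin phosphorylation and myocardin control, Rgs5, which damps angiotensin and other G protein signals in arterial muscle, ran from -3.88 to -2.98 against -2.43 to -0.09 and fell by 2.39 ± 0.31 (adjusted p = 4.19e-07). It was well above background on 2 of the 6 valsartan arrays, so the size is uncertain. The difference was -1.15 after normexp correction. It ran from -3.22 to -0.24 over all settings, and 1 of the 28 alternatives lost the call.

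Matrix genes were lower or mixed. Of the 10 collagen genes tested 0 were higher and 5 lower. Col1a2 ran from 5.94 to 6.35 (median 6.22) against 6.62 to 7.28 (median 7.08), with no overlap, and fell by 0.81 ± 0.15 (adjusted p = 7.98e-05), and Col3a1 fell by 0.49 ± 0.15. Col1a1 was at 6.07 ± 0.24 (SD, n = 6) and 6.33 ± 0.51 (SD, n = 8) (adjusted p = 0.217), while another of its probes was lower (-0.73, adjusted p = 0.0142). Dcn, the collagen-binding proteoglycan decorin, ran from 1.99 to 2.70 (median 2.20) against 3.56 to 5.23 (median 4.69) and fell by 2.28 ± 0.23 (adjusted p = 8.26e-09), and by 2.04 with detector gain as a term (adjusted p = 0.00263). Postn, periostin, fell by 1.82 ± 0.25, and Efemp1, a fibulin of elastic fibres, by 2.36 ± 0.23. Eln, elastin, was at 6.53 ± 0.37 (SD, n = 6) and 6.44 ± 0.41 (SD, n = 8) (adjusted p = 0.683). Tgfbi, a matrix protein induced by TGF-beta, fell by 2.43 ± 0.18 (adjusted p = 9.55e-11) and Bmp4 by 2.68 ± 0.24. Without saline arrays 3, 7 and 8, 7 of 10 collagens, 12 of 18 matricellular genes, 12 of 22 elastic fibre genes and 10 of 20 TGF-beta and BMP genes were lower, where all saline arrays gave 5, 7, 6 and 8. The fit with detector gain as a term called 0 collagens and did not call Postn (-1.22, adjusted p = 0.0721).

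Fat and mitochondrial genes were mostly lower with valsartan when all saline arrays were used, and the size of the difference depended on 3 saline arrays. For oxidative phosphorylation the common direction depended on them too. Of the 25 genes of fatty acid oxidation 22 were lower and 0 higher (median -1.64), of 22 white adipocyte genes 15 and 0 (median -2.14), of 14 brown adipocyte genes 9 and 1 (median -2.09), and of 36 genes of oxidative phosphorylation 19 and 4 (median -0.63). The summed white adipocyte level was 9.18, 9.12 and 8.47 on saline arrays 3, 7 and 8, between 5.08 and 6.95 on the other 5 saline arrays, and between 4.28 and 5.54 on the valsartan arrays. For fatty acid oxidation the same 3 arrays had 9.24, 9.25 and 8.49, the other 5 had 6.08 to 6.95, and valsartan arrays had 5.83 to 6.27. The summed brown adipocyte level reached 8.38 with saline and ran from 3.44 to 4.35 with valsartan. Adipoq, the fat hormone adiponectin, ran from 0.32 to 2.82 with valsartan and from 2.05 to 6.27 with saline, and Ucp1, the uncoupling protein of brown fat, from -0.81 to 1.93 and from 0.25 to 6.91, so both overlapped. Hadhb, a subunit of the trifunctional enzyme of fatty acid oxidation, ran from -1.08 to -0.38 against 0.61 to 4.65, with no overlap.

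Without saline arrays 3, 7 and 8, fatty acid oxidation had 14 of 25 genes lower (median -0.63) and white adipocyte genes 11 of 22 (median -1.01), brown adipocyte genes 6 of 14 (median -1.35), while oxidative phosphorylation was split, with 12 genes higher and 14 lower (median -0.10). Genes of the mitochondrial lists still called lower then included Hadhb, which fell by 1.95 ± 0.20 (adjusted p = 8.2e-08), Eci1, which isomerises unsaturated fatty acids and fell by 1.85 ± 0.17 (adjusted p = 1.94e-08), Sdhb, a subunit of succinate dehydrogenase that fell by 1.69 ± 0.25 (adjusted p = 5.89e-06), and Atp5f1b, the catalytic beta subunit of ATP synthase, which fell by 1.41 ± 0.16 (adjusted p = 2.22e-07). Oxidative phosphorylation genes called higher then included Ndufb3 (1.45 ± 0.14, adjusted p = 2.87e-08), Ndufa2 (1.30 ± 0.27, adjusted p = 0.000386) and Atp5mc1 (0.76 ± 0.13, adjusted p = 4.5e-05). The fit with detector gain as a term and all saline arrays called 5 genes of fatty acid oxidation and 1 of oxidative phosphorylation lower, Sdhb (adjusted p = 0.0605) and Atp5f1b (adjusted p = 0.063) not among them. How much perivascular fat each aorta carried was not measured, and its part in these differences was not tested.

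**Figure D4:**
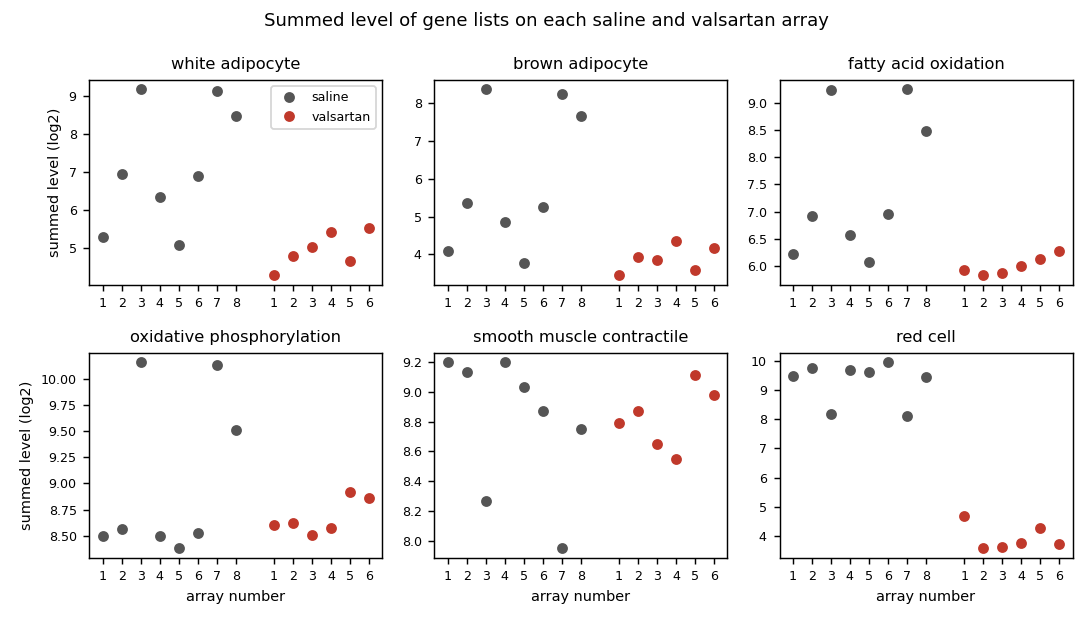
Summed level of 6 gene lists (vertical axes, log2 of the summed relative intensity) on each saline and valsartan array (horizontal axis, array number within its group); points are arrays. Saline arrays 3, 7 and 8 stand above the rest for the fat and mitochondrial lists and are the lowest of the saline arrays for the contractile list, and red cell genes separate the groups with no overlap.

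Red cell, macrophage and complement genes were mostly lower with valsartan, with or without saline arrays 3, 7 and 8, and the lists of other immune cells were not. The summed red cell level ran from 8.12 to 9.95 with saline and from 3.59 to 4.69 with valsartan, and of 20 genes 12 were lower and 0 higher (13 and 0 without the 3 arrays). The low sum was not particular to valsartan: it ran from 3.40 to 4.89 with high-dose SXC and from 4.01 to 5.35 with low-dose SXC. Saline was the group that stood apart, and its arrays were scanned 82 days or more after those of every other group. Hba-a1, alpha globin, fell by 5.47 ± 0.35 and Hbb, beta globin, by 5.67 ± 0.36. The summed macrophage level ran from 5.16 to 6.08 with saline and from 3.39 to 4.69 with valsartan. It was 5.12 and 5.39 on high-dose SXC arrays 1 and 2, read at the higher gain. High-dose arrays 3 to 6, read at the lower gain, had 4.36 to 4.79. Low-dose SXC arrays, all read at the higher gain, had 5.53 to 5.89, inside the saline range. The part of gain in the macrophage sum was not tested. Of 20 macrophage genes 16 were lower and 0 higher (15 and 0 without the 3 arrays, 11 and 0 with detector gain as a term), and Cd163, the haemoglobin scavenger receptor of resident macrophages, was at least 4.04-fold lower. Cd163, C1qc, Mrc1, Cd86, Msr1 and Fcgr3a were well above background on no valsartan array. Of 12 T and B cell genes 5 were higher and 1 lower, and their summed level ran from 1.47 to 2.56 with valsartan against 0.08 to 0.88 with saline; the gain term left 0 of them called in either direction. Of 14 neutrophil and mast cell genes 3 were higher and 5 lower, with a summed level of 1.92 to 2.97 against 0.56 to 1.52. With detector gain as a term 1 was higher and 5 lower. On high-dose SXC arrays 1 and 2, read at the higher gain, this sum was -0.18 and 0.49. On high-dose arrays 3 to 6, read at the lower gain, it ran from 2.70 to 3.25. Of 9 genes of MHC class II, which presents antigen, 1 was higher and 4 lower.

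Of 18 complement genes 12 were lower and 2 higher, with a median of -1.74 (-2.05 without the 3 arrays). C4a, the fourth component, ran from 0.05 to 0.64 (median 0.45) with valsartan and from 2.95 to 4.11 (median 3.83) with saline, and fell by 3.26 ± 0.19 (adjusted p = 2.66e-12). Cfb, factor B of the alternative pathway, ran from -1.63 to -0.17 (median -1.21) against 2.05 to 3.50 (median 2.98) and fell by 4.03 ± 0.31 (adjusted p = 1.29e-10). C1qb, part of the first component, ran from -1.37 to -0.29 against 1.55 to 3.04 and fell by 3.06 ± 0.22. None of the 3 overlapped, and each fell with detector gain as a term too, by 3.13, 3.44 and 2.55. The part of macrophage and blood content in the complement values was not tested.

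Endothelial genes were mostly lower, 9 of 15, with 2 higher (9 and 3 without saline arrays 3, 7 and 8, 5 and 0 with detector gain as a term). Pecam1, an adhesion molecule of endothelial junctions, ran from -0.77 to -0.03 (median -0.23) against 1.12 to 3.27 (median 2.71) and fell by 2.78 ± 0.29 (adjusted p = 1.96e-08). Cldn5, a tight junction protein, was at least 7.98-fold lower. Cdh5, VE-cadherin, went the other way, from a saline range of -3.58 to -3.00 to a valsartan range of -1.81 to -1.1, a rise of 1.83 ± 0.24 (adjusted p = 6.15e-07) that was not called with gain as a term (0.60, adjusted p = 0.301). Gja5, the gap junction protein connexin 40, was among the largest falls of genes seen on all 14 arrays (3.47 ± 0.20). Of 29 interferon response genes 16 were lower and 4 higher, with a median of -0.65 that was 0.15 after normexp background correction. Irf7, a master regulator of interferon genes, fell by 4.20 ± 0.27, from 0.28 to 1.86 down to -3.86 to -2.37. Gbp5, a guanylate-binding protein, rose by 1.70 ± 0.14.

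Most proteasome and antioxidant genes were lower. Of 35 proteasome genes 21 were lower and 5 higher (19 and 7 without saline arrays 3, 7 and 8, 9 and 1 with detector gain as a term). Psmc1, an ATPase of the regulatory particle, ran from -0.30 to 0.39 (median 0.12) against 1.59 to 1.80 (median 1.66), with no overlap, and fell by 1.61 ± 0.13 (adjusted p = 3.03e-10). Psme1, an activator subunit, fell by 1.40 ± 0.11 and Psmb3, a core subunit, by 0.94 ± 0.09. Psmb9, the immunoproteasome subunit, rose by 2.07 ± 0.33, a call lost with gain as a term (0.10, adjusted p = 0.92). Of 29 antioxidant genes 18 were lower and 2 higher. Ftl1, ferritin light chain, ran from 4.36 to 4.83 (median 4.67) against 5.74 to 6.27 (median 6.17) and fell by 1.45 ± 0.11 (adjusted p = 6.94e-11), and by 1.59 with detector gain as a term (adjusted p = 1.22e-05). Gpx3, the secreted glutathione peroxidase, fell by 2.07 ± 0.21 and Prdx2, a peroxiredoxin also abundant in red cells, by 2.04 ± 0.23. Genes known to respond to glucocorticoids were lower in 10 of 18 cases and higher in 2. Mt1, a metallothionein, ran from 1.39 to 2.55 (median 2.13) against 4.16 to 5.02 (median 4.69) and fell by 2.62 ± 0.18 (adjusted p = 2.05e-11). Glul, glutamine synthetase, fell by 3.01 ± 0.26, and Hsd11b1, which regenerates active glucocorticoid, by 1.81 ± 0.19.

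Fewer lists leaned upward. Cholesterol synthesis and uptake was not clearly one of them: of its 24 genes 10 were higher and 7 lower, against 33.3% and 25.9% of all genes. Its median of 0.28, against 0.15 over all genes, was -0.14 after quantile normalisation. Idi1, an isomerase of the synthesis pathway, ran from 1.73 to 2.91 (median 2.12) against -1.07 to 0.24 (median -0.20) and rose by 2.57 ± 0.25 (adjusted p = 4.18e-09). Sqle, squalene epoxidase, ran from 0.93 to 2.32 against -1.75 to -0.34 and rose by 2.40 ± 0.24, and Msmo1, a sterol oxidase, rose by 1.71 ± 0.19. Abca1, the cholesterol exporter, was at least 1.59-fold lower. Of 24 cell cycle genes 11 were higher and 1 lower. Cdc20, an activator of mitotic exit, ran from 2.90 to 3.64 (median 3.47) against -0.81 to -0.28 (median -0.51) and rose by 3.90 ± 0.32 (adjusted p = 3.18e-10). Mcm4, a replication helicase subunit, rose by 1.25 ± 0.14, with a dim second probe at -0.21. Without saline arrays 3, 7 and 8 the cell cycle count was 8 and 2, and with detector gain as a term it was 3 and 0.

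In the list of Notch, Wnt and growth factor genes 11 of 26 were higher and 9 lower. Hey1, a target of Notch, ran from 3.79 to 4.53 (median 4.28) against -1.07 to 0.07 (median -0.43) and rose by 4.73 ± 0.35 (adjusted p = 6.18e-11), and Notch3, the Notch receptor of arterial muscle, rose by 1.72 ± 0.24. Igf1r, the receptor for insulin-like growth factor 1, rose by 3.51 ± 0.53, while its ligand Igf1 ran from 1.87 to 2.37 (median 2.12) against 3.44 to 3.77 (median 3.59) and fell by 1.44 ± 0.14 (adjusted p = 5.88e-09). With detector gain as a term Igf1 fell by 1.5 (adjusted p = 0.000598) and Hey1 rose by 3.25 (adjusted p = 0.000463), whereas Notch3 lost its call (1.12, adjusted p = 0.0857) and Igf1r was at -0.28 (adjusted p = 0.773). Hey1 and Cdc20 stood at 4.34 and 3.38 on average with high-dose SXC, against 4.22 and 3.36 with valsartan.

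**Figure D5:**
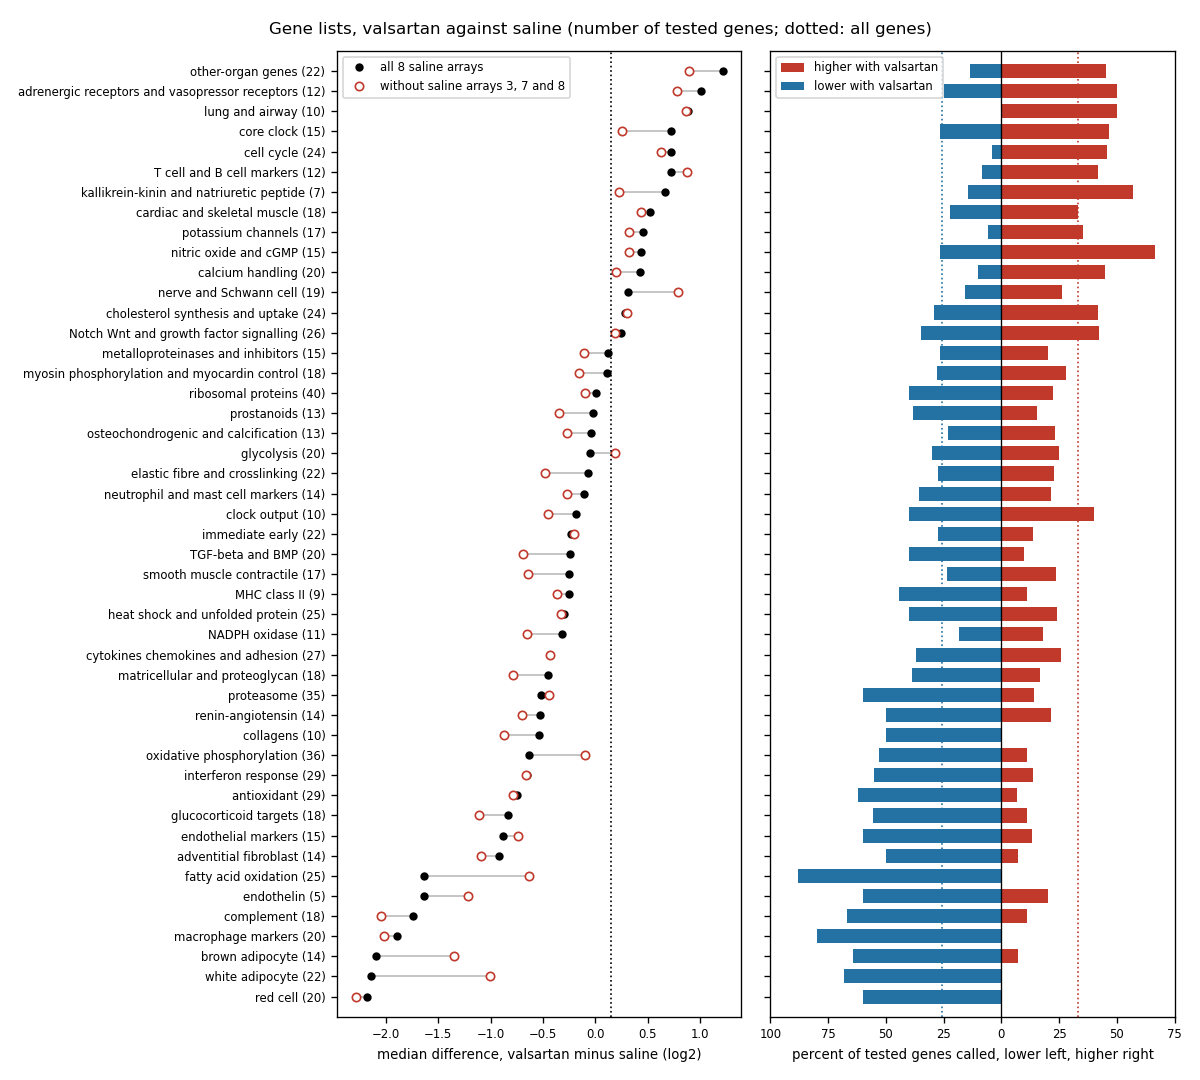
Left, the median difference of each gene list, valsartan minus saline (horizontal axis, log2), with all 8 saline arrays (filled) and without saline arrays 3, 7 and 8 (open); the dotted line is the median of all genes, 0.15. Right, the percent of each list's tested genes called higher or lower, with dotted lines at the shares over all genes, 33.3% and 25.9%; the fat and fatty acid oxidation lists move most between filled and open points, and red cell, macrophage and complement lists lie far left with either.

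The largest differences among genes well above background on all 14 arrays were rises of 6.08 to 7.44 in 12 genes and falls of 3.30 to 7.22 in 12 genes. Saline means of the genes that rose reached down to -5.90 (Sftpc), near the lowest signal well above background on saline arrays (-6.68 to -5.90). The sizes of the rises depended on the processing. Over all settings Sftpc rose by 2.59 to 7.62, Jakmip3 by 2.06 to 6.35 and Tas2r116 by 5.16 to 6.84. Among the rises, Rph3a, a synaptic vesicle protein, ran from 1.45 to 2.60 with valsartan and from -5.01 to -4.53 with saline. Ak4, a mitochondrial adenylate kinase, ran from 0.66 to 2.55 against -4.96 to -4.10, and Gpx2, a glutathione peroxidase of gut epithelium, from 1.53 to 3.13 against -3.79 to -3.39. The bitter taste receptor Tas2r116 rose by 6.57 ± 0.41 and the olfactory receptors Or52ae7, Or6aa1b and Or8g34b by 6.71, 6.09 and 6.08. Olfactory receptor genes as a class leaned the same way: of 397 tested probes 302 (76.1%) were higher and 6 lower, with a median of 2.05, and 44 of the 302 were well above background on all 6 valsartan arrays. Over all tested probes 33.2% were higher. The olfactory median was 1.02 with quantile normalisation and 1.05 with the authors' values, and 194 of the 302 were called higher under all 4 scalings. Rph3a stood at 1.96 on average with high-dose SXC, against 2.00 with valsartan. None of the 12 genes that rose most differed from high-dose SXC by the test, where 0.36% of all genes were higher with valsartan. Their differences from it ran from -0.15 (Tas2r116) to 0.86 (Or8g34b). Of the falls, 5 were globin genes. The others included Pi16, a marker of adventitial fibroblasts, which fell by 3.71 ± 0.23, Angptl4, an inhibitor of lipoprotein lipase, by 3.78 ± 0.58, Cdo1, which breaks down cysteine, by 3.30 ± 0.44, and G0s2, an inhibitor of fat cell lipolysis, by 3.40 ± 0.76. G0s2 spread from 0.78 to 6.57 over the saline arrays, and without saline arrays 3, 7 and 8 G0s2 fell by 1.64 and Angptl4 by 2.52. With detector gain as a term Rph3a rose by 4.23 (adjusted p = 0.00814) and Tas2r116 by 5.19 (adjusted p = 4.42e-05), Ak4 lost its call (3.45, adjusted p = 0.0602), and Pi16 and Gja5 fell by 3.06 and 2.95. Sftpc, a surfactant protein of lung, had the largest rise, and of 10 tested lung genes 5 were higher and 0 lower. Their summed level ran from 1.1 to 2.19 with valsartan and from -1.55 to -1.11 with saline, while the lung markers Lamp3, Cldn18, Nkx2-1, Napsa and Sftpd were well above background on no valsartan array. With detector gain as a term Sftpc was higher (4.97, adjusted p = 0.000913) and Napsa lower (-2.92, adjusted p = 0.0237). No other lung gene was then called, and the list median was -0.07. The summed lung level was 0.19 and 0.81 on high-dose SXC arrays 1 and 2, read at the higher gain. On high-dose arrays 3 to 6, read at the lower gain, it ran from 2.15 to 2.90.

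Probes of the same gene often disagreed. Of 430 genes with 2 or more probes well above background on all 14 arrays, the probes had the same sign in 243 (56.5%), and 71 genes had probes called in opposite directions.

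Against high-dose SXC, 325 of 23744 probes (1.37%) differed, 63 higher with valsartan and 262 lower. Outside the clock, and chosen after their values were seen among genes detected on all 6 valsartan arrays, Herpud1, a gene of the endoplasmic reticulum stress response, was 0.89 higher with valsartan (adjusted p = 0.000909). Pmepa1 and Smad7, feedback inhibitors of TGF-beta signalling, differed by -1.20 and -1.01, and Adamts1, a protease of matrix proteoglycans, was 1.12 higher. None of the 14 renin-angiotensin genes, 10 collagens, 17 contractile genes or 35 proteasome genes differed from high-dose SXC by the test.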

How the data were processed

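Total RNA of each thoracic aorta was labelled with Cy3 and hybridised to a 1-colour Agilent rat array. Per the file headers, the authors quantified the scans with Agilent Feature Extraction 11.0.1.1, which made the intensity used here, the processed signal (corrected for background and spatial trend on each array, with no step between arrays). Spot flags of 0 or 1 were deposited beside it. A deposited table of the authors' log2 values has the same median (5.75) in every column, as quantile normalisation gives, and served as an alternative scaling; how it was made is not stated.

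Control spots and outlier-flagged spots were left out, spots of a probe were averaged, and levels are log2 processed signal minus the array's 75th percentile. A probe well above background in at least 0.5 of its spots counted as such on an array, and the 23744 of 30367 probes so on at least 6 of 26 arrays were tested. Symbols came from matching accessions to the GRCr8 RefSeq gene list (18005 probes had 1 symbol, 12362 none). Groups were compared in 1 linear model of all 4 groups without covariates, by the moderated 2-sided test of limma 3.58.1 (eBayes, trend on) under R 4.3.3. All adjusted p-values are Benjamini-Hochberg values of that limma test over all probes, called under 0.05. The test was tried on simulated data first. A gene is represented by its brightest probe on average. Where a group had no array well above background, "at least" folds set the bright group's mean against the higher of the dim probe's value and the lowest signal well above background on each array. These bounds hold on the main scaling only. After normexp background correction the falls of Bmal1, Nos3, Edn1 and Ednrb against saline were smaller than their bounds.

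Named genes were the 12 largest rises and falls detected on all 14 arrays and called under all 4 scalings, up to 4 called members per direction of each of 47 lists, and a set of 32 genes of vascular interest; Vwf, among these, did not pass the filter, and a few genes are not reported here. Mme, Enpep and the non-clock genes against high-dose SXC were added after their values were seen. The groups, lists and rules were chosen with earlier results of these data known. Files were loaded with data.table (1.17.8) and plotted with matplotlib 3.10.9. Alternatives were normexp, quantile and the authors' scaling, other filters, slide, gain and replicate number as terms, arrays left out, and a common floor. Same-numbered valsartan and saline samples did not deviate together (correlations -0.21 to 0.07), so the numbers do not pair them.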

Additional observations from a re-analysis of the deposited data

Results flagged for a closer look

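Of 106 groups of 6 or 8 arrays examined for named genes, 5 held an array that stood apart from the rest by Dixon's criterion (a gap over 0.625 of the range for 6 arrays or 0.526 for 8), a number that chance alone, which marks about 1 group in 20, would also give. On valsartan array 2 Nox4, the NADPH oxidase of smooth muscle, was at 0.54, with the other 5 valsartan arrays between -2.85 and -1.84. On valsartan array 3 Rgs5 was at -2.98, with the others between -3.88 and -3.69. Saline array 6 had Rph3a at -4.53, with the others between -5.01 and -4.82. Saline array 4 had Fam161a at -1.48 (others -2.98 to -2.36) and Or8g34b at -3.35 (others -4.94 to -4.63).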

How the results depend on the processing

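The count of probes called against saline, 13876 (7888 higher, 5988 lower), stayed between 13062 and 13899 when any 1 array was left out. The split moved with the scaling: 14296 probes were higher with normexp background correction, 5173 with quantile normalisation and 5160 with the authors' values. With no filter on dim probes 14495 were higher. The median over all probes was 0.19, 0.70, -0.30 and -0.27 with the main scaling, normexp, quantile and the authors' values. A strict filter gave 5801 calls (3316 higher, 2485 lower), detector gain as a fixed term 3256 (1899 and 1357), a common floor 5563 (2666 and 2897), and a log2 change of at least 1 gave 9089 calls with 3490 lower. With saline taken as 3 means (arrays 1 and 5, 2 and 6, 3 and 7) 9920 probes were called, and with slide as a random block (correlation 0.21) 10799. The fit with replicate number as a block called 12584 probes.

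Against high-dose SXC 325 probes were called. The count was 17 with normexp, 728 with quantile normalisation, 189 with no filter, 51 with the strict filter, 4 with only the 2 groups compared, 4 with slide as a random block, 1423 with detector gain as a term, 110 with saline as 3 pair means, 40 with the common floor, and 643 without saline arrays 3, 7 and 8. It was 2393 with the slide of valsartan arrays 3 to 6 alone, 1331 with the high-dose arrays at the valsartan gain and 528 with those of its scan day. With replicate number as a block it was 108, and with 1 array left out it ran from 92 to 886. The causes were not tested.

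Of the 535 list members called, 33 changed sign with detector gain as a term, and none of these passed there; of those named in the text these were Kcnma1, given below, Igf1r (-0.28, adjusted p = 0.773 by limma) and Cd86 (0.82, adjusted p = 0.651). Cd86 was also at 0.09 under normexp, and Cldn18 at -1.14 with quantile normalisation (adjusted p = 0.0179) and -0.72 with the authors' values. Normexp changed the sign of 38, quantile normalisation of 12, the authors' values of 11 and the common floor of 2, and 10, 2, 1 and 0 of these passed the other way. Of the largest rises and falls and the genes of vascular interest, the following changed sign, and only Kcnma1 of them had passed. Under normexp Nox4 was at 0.05, Cacna1c at 0.19, Kcnmb1 at 0.13, Ednra at 0.50 (adjusted p = 0.00224 by limma) and Eln at -0.12. Ace was at -0.03 with quantile normalisation and with the authors' values. With detector gain as a term Nox4 was at 0.15, Cacna1c at 0.51, Col1a1 at 0.24, Ace at -0.60, Kcnma1 at -0.89 (adjusted p = 0.527) and Ednra at 0.71. With the replicate block Ace was at -0.08 and Eln at -0.03. Cacna1c was at 0.01 with slide as a block and 0.03 with pair means. With the common floor Nox4 was at 0.04 and Ace at -0.05. Without saline arrays 3, 7 and 8 Ace was at -0.25 and Eln at -0.18. With 1 array left out, Cacna1c ran from -0.16 to 0.08, Ace from -0.05 to 0.15 and Eln from -0.02 to 0.19. Scaling on spike-in controls was not run, since 0 spike-in probes could be used. The common floor, the slide of valsartan arrays 3 to 6, the same-day SXC arrays and the removal of saline arrays 3, 7 and 8 together were chosen after seeing the data. Detection was lower on the valsartan arrays, which limits what can be said of dim genes there.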
